A study of Mus musculus with 8 samples.

Results

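The integrin subunits of matrix adhesion were examined in the dental pulp (DP) of P7 mice. They are 10 genes chosen by name, the α chains *Itga1*, *Itga2*, *Itga3*, *Itga5*, *Itga6*, *Itga11* and *Itgav* and the β chains *Itgb1*, *Itgb3* and *Itgb5*, and all 10 were found by Ensembl identifier among the 12148 genes of the RNA-Seq table. *Itga6*, a laminin-binding α chain, was the only member to meet the thresholds used here for an altered gene, at 2.0-fold the control level in *Tgfbr2cko* mice (95% interval 1.41 to 2.84, n = 4 and 4). The same thresholds were met by 5.77% of all genes. The adjusted p of *Itga6* was 0.0724 in limma, and no member passed an adjusted p of 0.05. *Itgav*, an α chain that binds RGD-containing proteins, was 1.27-fold higher, with every mutant library above every control library but with a change under the fold threshold. *Itgb1*, the shared β chain and the most abundant member, differed by 0.06 on the log2 scale, less than the spread between replicates.

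The samples were 8 libraries of DP RNA from the first molars (M1s) of C57BL/6J mice at postnatal day 7, with the left and right M1s of a sample combined. In 4 libraries the mice were Osterix-Cre controls, and in 4 they were *Tgfbr2cko* mice, which have Osterix-Cre and floxed *Tgfbr2* alleles (Osterix-Cre:Tgfbr2f/f), so that all groups carry the Cre transgene. The Osterix promoter drives Cre in the mesenchyme that gives rise to odontoblasts and osteoblasts. The study's reporter mice showed no Cre activity in the axons of the pulp. Whether its other cells (vessels, blood cells, nerve sheath) keep the receptor gene was not tested here. The study asked how loss of the type II TGFβ receptor in this mesenchyme alters gene expression in the pulp, and the comparison described here asks whether the receptors that bind cells to their matrix differ between the genotypes.

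Integrins are receptors of the cell surface made of one α and one β chain, and the pair decides what the cell can bind. The β1 chain pairs with α1, α2 and α11 to bind collagens, with α3 and α6 to bind laminins, and with α5 to bind fibronectin at its RGD motif. The αv chain pairs with β1, β3 and β5 and binds RGD motifs in several matrix proteins, and with some of its partners it can release TGFβ from its latent complex. Both chains cross the membrane, and talins and kindlins link the β tail to actin. In teeth, odontoblasts and pulp fibroblasts contact a collagen matrix, while epithelial cells rest on a laminin-rich basement membrane, where α6 also pairs with the β4 chain in hemidesmosomes.

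The libraries held between 8682872 and 13539670 reads on the analysed genes, and 1 read was between 0.0739 and 0.115 CPM. Each member had at least 50 reads in each library, and some of the genes set beside them had fewer. The labelled tissue was checked by its markers, and the 5 odontoblast genes (*Dspp*, *Dmp1*, *Nes*, *Col1a1* and *Phex*) summed to 45837 to 98419 CPM over the controls and 28046 to 60925 CPM over the mutants, and the 6 dental mesenchyme genes to 1373 to 1690 CPM and 1084 to 1860 CPM. One mutant library, numbered 56 here, stood apart. The enamel matrix transcripts *Amelx* and *Ambn*, products of the ameloblasts that were to be removed with the enamel organ, took 18.5% of its reads and between 0.326% and 2.74% in the other 7 libraries. *Tgfbr2* itself was at 7.16, 7.62, 7.64 and 7.52 log2 CPM in the controls and at 7.02, 7.00, 7.16 and 7.61 in the mutants, where 7.61 is library 56. The difference was −0.29 (SE 0.17, unadjusted p = 0.119 and adjusted p = 0.79 in limma), and −0.42 without library 56 (unadjusted p = 0.0136 and adjusted p = 0.295 in limma). Reads were counted over the whole gene, in tissue that also holds cells without Cre, so the gene's level is only a partial check of the genotype labels. The labels number some libraries of a genotype alike without saying what the number marks, so the p-values measure the spread between these libraries, and in bulk RNA fewer cells of a type and less RNA per cell cannot be told apart.

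A gene was called altered where its unadjusted p was under 0.05 and its level changed by 1.5-fold or more. By this rule 1 of the 10 members was altered, *Itga6*, beside 5.77% of all 12148 genes (2.12% higher and 3.65% lower in the mutants). No member passed an adjusted p of 0.05 in limma, beside 0.947% of all genes, and 2 of 10 had an unadjusted p under 0.05, beside 8.38% of all genes. The values of the genotypes did not overlap in 2 of 10 members, beside 5.27% of all genes, and in both the mutants were higher. The mean was higher in the mutants for 6 members and lower for 4, with a median log2 difference of 0.19 beside −0.00535 over all genes. Without library 56 the altered member was again *Itga6*, 5 members had a higher and 5 a lower mean, and the median log2 difference was 0.03 beside 0.07 over all genes.

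**Figure D1:**
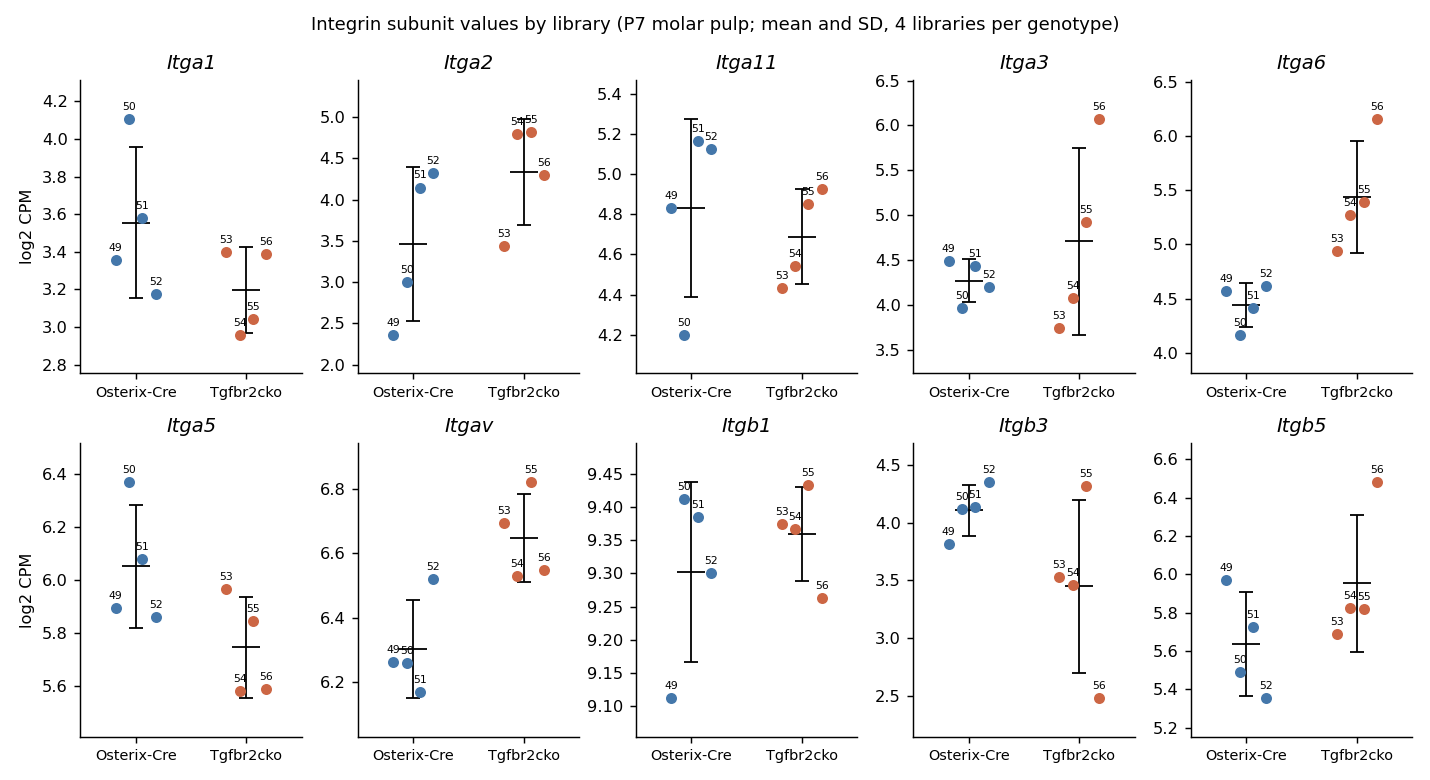
Values of the 10 integrin subunits in each library. The vertical axis is log2 CPM as deposited, each point is 1 library (4 Osterix-Cre and 4 *Tgfbr2cko*), the bars are the mean and SD of a genotype, and the numbers are those of the libraries. The mutant points lie above all control points for *Itga6* and *Itgav* and overlap them for the other 8 subunits.

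Levels were compared between genes per length, as reads scaled to exon length and to the library's total (RPKM). *Itgb1* was far above the rest at 155 ± 14.1 RPKM in Osterix-Cre and 161 ± 7.78 RPKM in *Tgfbr2cko* pulp (SD, n = 4 each), and ranked 302 and 285 of 12144 genes. *Itgb5* and *Itga5* followed in the controls at 14.2 ± 2.71 and 13.6 ± 2.29 RPKM, and these neighbours did not differ beyond their spread. *Itgav* was at 7.38 ± 0.80 RPKM, below the range of *Itga5*. *Itga11*, at 5.72 ± 1.57 RPKM, overlapped both *Itgav* and the next member, *Itga3*, at 3.42 ± 0.54. The order then ran through *Itgb3* (2.94 ± 0.44), *Itga6* (2.42 ± 0.33) and *Itga2* (1.78 ± 1.01) to *Itga1* (0.65 ± 0.19), and the ranges of neighbours in this order were separate only between *Itgb1* and *Itgb5* and between *Itga5* and *Itgav*. The exons of *Itga1* sum to 18.6 kb over all its transcripts, so its value per length may be low for that reason.

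In the mutants *Itga6* stood at 5.06 ± 1.98 RPKM, beside *Itga11* at 5.07 ± 0.83, and *Itgb3* stood at 2.03 ± 1.01 RPKM, below *Itga2* at 3.02 ± 1.15. The ranges of neighbours in the mutant order were separate between *Itgb1* and *Itgb5*, between *Itgb5* and *Itga5* and between *Itgb3* and *Itga1*. *Itgb1* made up between 72.0% and 77.0% of the members' summed RPKM in the controls and between 67.2% and 76.2% in the mutants. Its RPKM was 4.16, 4.88, 4.47 and 4.26 times the sum of the 7 α chains for the controls and 4.74, 4.71, 4.02 and 3.17 times for the mutants. In each of the 8 libraries the β1 transcript exceeded the sum of the α chains, and the ratios of the genotypes overlapped. The share of the α chain sum taken by *Itga6* ran from 5.80% to 8.05% over the controls and from 9.90% to 16.7% over the mutants, with no overlap.

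**Figure D2:**
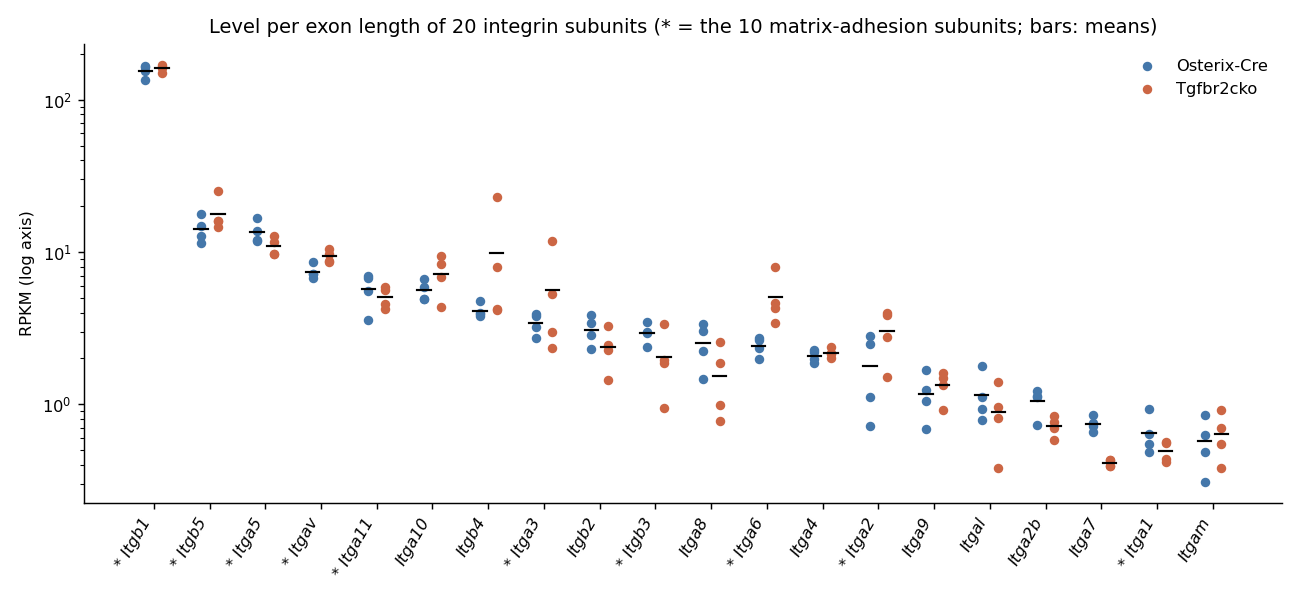
Levels of 20 integrin subunits per exon length, the 10 members marked with an asterisk. The vertical axis is RPKM on a log scale, points are single libraries of each genotype, bars are means and the subunits are ordered by their control mean. *Itgb1* stands alone at 136 to 169 RPKM, and the other members lie between 0.416 and 25.2.

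The laminin receptors were *Itga3* and *Itga6*. *Itga6* (chr2:71745616-71858416, plus strand, GRCm38) was at 4.57, 4.17, 4.41 and 4.62 log2 CPM in the controls and at 4.94, 5.27, 5.39 and 6.16 in the mutants. The lowest mutant was above the highest control, and library 56 was the highest of all 8. The means were 4.44 ± 0.20 and 5.44 ± 0.52 (SD, n = 4 each), a log2 difference of 1.00 (SE 0.23, 95% interval 0.49 to 1.51). The unadjusted p in limma was 0.000931 and the adjusted p 0.0724, and the two-sided exact permutation p was 0.0286, the smallest that 4 against 4 allows. It ranked 156 among all genes by p.

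The difference in *Itga6* was recomputed in other fits, among them without library 56 and with epithelial transcripts as a covariate. Without library 56 it was 0.76 (unadjusted p = 0.0011 and adjusted p = 0.0725 in limma). The gene met the thresholds for an altered gene in all 19 other fits, with log2 differences from 0.62 to 1.17 and adjusted p from 0.0142 to 0.228. The lowest value, 0.62 (unadjusted p = 0.00354 and adjusted p = 0.17 in limma), came with the mean log2 value of the epithelial keratins *Krt5* and *Krt14* as a covariate, a fit added after the data were seen.

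*Itga3* (chr11:95044474-95076801, minus strand) was at 4.49, 3.97, 4.43 and 4.20 log2 CPM in the controls and at 3.75, 4.09, 4.93 and 6.08 in the mutants. The mutants lay on both sides of the controls, and the highest value was again that of library 56. The difference was 0.44 (SE 0.39, adjusted p = 0.939 in limma) with all libraries and −0.02 without library 56, so its sign rests on that library. Within a library, log2 CPM of *Itga3* minus that of *Itga6* averaged −0.17 ± 0.19 over the controls and −0.73 ± 0.55 over the mutants, with ranges that overlapped.

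Epithelial markers are given beside the laminin receptors, and their part in the *Itga6* and *Itga3* values was not tested. Libraries 55 and 56 had the highest epithelial sums and also the highest *Itga6* values. Of the 10 genes listed for dental epithelium 9 were analysed (all but *Shh*), and their summed level was between 857 and 1617 CPM in the controls and at 561, 938, 1685 and 4259 CPM in mutant libraries 53, 54, 55 and 56. The enamel proteases *Klk4* and *Mmp20* carry much of this sum. Without them, a sum added after the data were seen, the other 7 markers came to 398, 245, 388 and 300 CPM over the controls and to 258, 380, 965 and 3147 CPM over mutant libraries 53 to 56. Libraries 53 and 54 were thus within the control range by these markers, and their *Itga6* values of 4.94 and 5.27 lay above every control. *Krt14* was at 7.64, 7.01, 7.57 and 7.18 log2 CPM in the controls and at 7.06, 7.57, 8.95 and 10.61 in the mutants. Within the list *Klk4*, a protease of maturing enamel, was lower in the mutants by 2.71 on the log2 scale (a difference of −2.71, adjusted p = 0.000136 in limma), while *Cdh1* and *Cldn1* were altered with differences of 1.15 and 2.05. Without library 56 those differences were 0.55 and 0.96 and neither gene was altered. The 3 enamel matrix genes summed to between 3343 and 22080 CPM in the controls and between 3555 and 191955 CPM in the mutants. Of the Schwann cell markers 2 of 5 were analysed, at 17.3 to 24.4 CPM in the controls and 23.5 to 24.4 CPM in the mutants, and the defining genes *Sox10* and *S100b* were not analysed. With the mean log2 value of *Amelx*, *Ambn* and *Enam* as a covariate, *Itga6* differed by 0.76 (unadjusted p = 0.00101 in limma) and *Itga3* by −0.05.

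*Itgb4*, the hemidesmosome partner of α6 and not a member, was at 4.74, 4.80, 5.07 and 4.77 log2 CPM in the controls and at 4.88, 4.88, 5.81 and 7.34 in the mutants. Its difference was 0.88 (SE 0.42, adjusted p = 0.614 in limma) with all libraries and 0.34 without library 56. Like *Itga6*, *Itgb4* was highest in libraries 55 and 56, and in libraries 53 and 54 it lay within the control range. The part of epithelial cells in the *Itgb4* values was not tested.

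**Figure D3:**
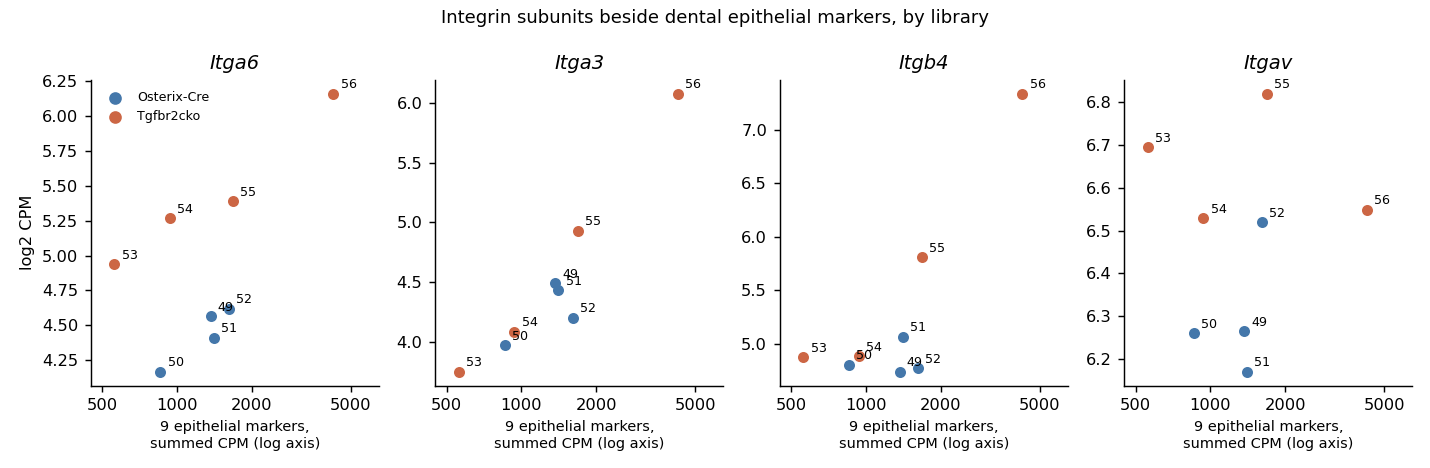
*Itga6*, *Itga3*, *Itgb4* and *Itgav* beside epithelial markers. The horizontal axis is the summed CPM of 9 epithelial markers on a log scale, the vertical axis log2 CPM of the subunit, and each numbered point is 1 library coloured by genotype. Libraries 55 and 56 have the highest marker sums and *Itga6* values, and library 53, lowest in the 9-marker sum (561 CPM) but not without *Klk4* and *Mmp20*, has an *Itga6* value of 4.94 beside the highest control at 4.62.

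The RGD receptors were *Itga5*, the fibronectin receptor chain, and *Itgav*. *Itgav* (chr2:83724397-83806916, plus strand) was at 6.26, 6.26, 6.17 and 6.52 log2 CPM in the controls and at 6.69, 6.53, 6.82 and 6.55 in the mutants. All mutants were above all controls, the closest pair being 6.52 and 6.53. The difference was 0.35 (SE 0.14, 95% interval 0.04 to 0.65, unadjusted p = 0.0277 and adjusted p = 0.451 in limma, exact permutation p = 0.0286). It was 0.38 without library 56, and the unadjusted p was under 0.05 in 3 of 8 fits that left out 1 library, where the difference ran from 0.29 to 0.42. With like-numbered libraries averaged, *Itgav* differed by 0.33 (unadjusted p = 0.0652 in limma). On the opposite strand the exons of Gm13684 cover 5.90% of those of *Itgav*, and the counting is not stated to use strand.

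*Itga5* (chr15:103344286-103366763, minus strand) was at 5.90, 6.37, 6.08 and 5.86 log2 CPM in the controls and at 5.97, 5.58, 5.85 and 5.59 in the mutants. The highest mutant lay within the control range and the other 3 below it. The difference was −0.31 (SE 0.16, 95% interval −0.65 to 0.04, adjusted p = 0.699 in limma), or −0.20 without control library 50, and the exact permutation p was 0.114.

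Taken within a library, the log2 value of *Itga5* minus that of *Itgav* came to −0.37, 0.11, −0.09 and −0.66 for the controls and to −0.73, −0.95, −0.97 and −0.96 for the mutants. All mutant values were below all control values, with means of −0.25 ± 0.34 and −0.90 ± 0.12 and a difference of −0.65, or −0.63 without library 56. This was 1 of 5 such ratios computed, and it is given as a description with no test.

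The collagen receptors were *Itga1*, *Itga2* and *Itga11*, and none of them was altered. *Itga2* (chr13:114833081-114932100, minus strand), a chain of the receptor through which platelets and epithelial cells bind collagen, was at 2.36, 3.0, 4.15 and 4.32 log2 CPM in the controls and at 3.44, 4.79, 4.82 and 4.29 in the mutants. The controls alone spread from 2.36 to 4.32, and the groups overlapped. The difference was 0.88 (SE 0.42, 95% interval −0.03 to 1.78, unadjusted p = 0.0563 and adjusted p = 0.616 in limma). The gene met the thresholds in 6 of 19 other fits, with differences over all 19 from 0.51 without control library 49 to 1.18 without mutant library 53. The study's own list of altered neuronal genes holds *Itga2*, and as that list was chosen from its RNA-Seq it is no independent evidence. Of 5 platelet markers 3 were analysed (*Pf4*, *Gp1bb* and *Itga2b*, without *Ppbp* and *Gp9*). They summed to between 105 and 204 CPM in the controls and between 40.2 and 143 CPM in the mutants. Most of this sum was *Pf4*, at 408 to 1879 reads per library, beside 7 to 56 for *Gp1bb* and 33 to 63 for *Itga2b*. With the keratin covariate the difference in *Itga2* was 0.75 (adjusted p = 0.655 in limma), and the epithelial sums are given above. The part of platelets and of epithelial cells in the *Itga2* values was not tested.

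*Itga1* (chr13:114953096-115101964, minus strand), which lies beside *Itga2* on the chromosome and shares 3.68% of its exon bases with Gm49395 on the same strand, was at 3.36, 4.11, 3.58 and 3.18 log2 CPM in the controls and at 3.40, 2.96, 3.04 and 3.39 in the mutants. The ranges overlapped, and the difference was −0.36 (SE 0.24, 95% interval −0.88 to 0.16, adjusted p = 0.841 in limma), or −0.17 without control library 50, the highest. *Itga11* (chr9:62677826-62783982, plus strand), a fibrillar collagen receptor of mesenchymal cells, was at 4.83, 4.20, 5.17 and 5.12 log2 CPM in the controls and at 4.43, 4.54, 4.85 and 4.93 in the mutants. All its mutant values lay within the control range, with a difference of −0.14 (SE 0.22, 95% interval −0.63 to 0.34, adjusted p = 0.995 in limma) and a range of −0.35 (without control library 50) to −0.03 (without control library 51) when 1 library was left out. Within a library *Itga2* minus *Itga1* averaged −0.10 ± 1.13 over the controls and 1.14 ± 0.85 over the mutants, with ranges that overlapped. *Itga11* minus *Itga1* averaged 1.28 ± 0.81 over the controls and 1.49 ± 0.33 over the mutants.

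Upstream sequence was read for the chains of the *Itga5* to *Itgav* ratio and for *Itga2*, which has the most matches among the α chains, because the deleted receptor signals through SMAD proteins that bind the letters CAGAC. The windows are the 250 bases before the RefSeq start site (GRCm38.p6), given 5′ to 3′ on the gene's strand, and capitals mark CAGAC or its reverse complement GTCTG, searched on both strands. The *Itgav* window is chr2:83724147-83724396 (plus strand), that of *Itga5* chr15:103366792-103367041 (minus strand) and that of *Itga2* chr13:114932101-114932350 (minus strand).
Itgav: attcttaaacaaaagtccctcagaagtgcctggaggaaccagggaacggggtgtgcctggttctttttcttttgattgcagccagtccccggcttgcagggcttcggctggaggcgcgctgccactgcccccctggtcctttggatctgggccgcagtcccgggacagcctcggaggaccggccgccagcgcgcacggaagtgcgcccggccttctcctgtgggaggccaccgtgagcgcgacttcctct
Itga5: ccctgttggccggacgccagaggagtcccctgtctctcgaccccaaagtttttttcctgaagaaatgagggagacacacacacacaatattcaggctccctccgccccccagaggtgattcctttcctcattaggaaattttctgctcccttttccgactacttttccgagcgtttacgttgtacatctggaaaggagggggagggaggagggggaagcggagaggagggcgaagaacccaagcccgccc
Itga2: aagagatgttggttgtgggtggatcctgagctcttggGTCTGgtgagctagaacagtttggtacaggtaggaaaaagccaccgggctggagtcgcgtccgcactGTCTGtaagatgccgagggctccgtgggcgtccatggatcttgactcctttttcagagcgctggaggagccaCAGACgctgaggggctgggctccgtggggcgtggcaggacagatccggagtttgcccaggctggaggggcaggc
*Itga2* held 3 matches, the first at position −213 and the last at −74 from the start site, and *Itgav* and *Itga5* held none. *Itgb1*, whose log2 difference between the genotypes was 0.06, also held 3. The part of these matches in the levels was not tested. RefSeq entries were found for 8 of the 10 members, with 9 windows, of which 4 held a match (*Itga1*, *Itga2*, *Itgb1* and 1 of the windows of *Itga3*), beside 42.2% of 32851 windows of the same length. *Itga6* and *Itgb3* had no entry.

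The β chains were *Itgb1*, *Itgb3* and *Itgb5*. *Itgb1* (chr8:128685654-128733200, plus strand) was at 9.11, 9.41, 9.39 and 9.30 log2 CPM in the controls and at 9.38, 9.37, 9.43 and 9.26 in the mutants. It had the smallest SD of the 10 members in both genotypes, at 5425 to 8321 reads per library, and the groups overlapped. The difference was 0.06 (SE 0.15, 95% interval −0.27 to 0.38, adjusted p = 0.998 in limma). Without control library 49, the lowest, the estimate was −0.0063.

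*Itgb3* (chr11:104608000-104670476, plus strand), the αv partner of osteoclasts and vessels and the αIIb partner of platelets, was at 3.82, 4.13, 4.14 and 4.36 log2 CPM in the controls and at 3.53, 3.46, 4.32 and 2.48 in the mutants. The lowest of all 8 values, 2.48, was that of library 56, and 1 mutant lay within the control range. The difference was −0.66 (SE 0.32, 95% interval −1.34 to 0.02, unadjusted p = 0.0563 and adjusted p = 0.616 in limma), and −0.34 without library 56. *Itgb3* met the thresholds in 5 of 19 other fits, among them the one without mutant library 55, where the difference was −0.95. The platelet marker sums given above, mostly *Pf4*, were also lower on average in the mutants, with overlapping ranges. The 3 osteoclast markers analysed (*Acp5*, *Ctsk* and *Mmp9*) summed to between 233 and 280 CPM in the controls and between 226 and 437 CPM in the mutants, and the defining genes *Dcstamp* and *Ocstamp* were not analysed. The endothelial markers, 6 of 6 analysed, summed to between 237 and 331 CPM in the controls and between 187 and 239 CPM in the mutants, and 4 of 6 pericyte markers summed to between 325 and 422 CPM and between 225 and 298 CPM, with no overlap. The part of these cells in the *Itgb3* values was not tested.

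*Itgb5* (chr16:33829665-33949338, plus strand), an αv partner that binds vitronectin, was at 5.97, 5.49, 5.73 and 5.35 log2 CPM in the controls and at 5.69, 5.82, 5.82 and 6.48 in the mutants. Only library 56 lay above the control range. The difference was 0.32 (SE 0.20, 95% interval −0.11 to 0.74, adjusted p = 0.813 in limma), and 0.14 without library 56. It was 0.14 with the enamel matrix covariate and 0.05 with the keratin covariate, and the part of epithelial cells in the *Itgb5* values was not tested. *Itgb3* minus *Itgb5* averaged −1.53 ± 0.48 over the controls and −2.50 ± 1.07 over the mutants, a difference of −0.98 that was −0.48 without library 56, and the ranges overlapped.

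**Figure D4:**
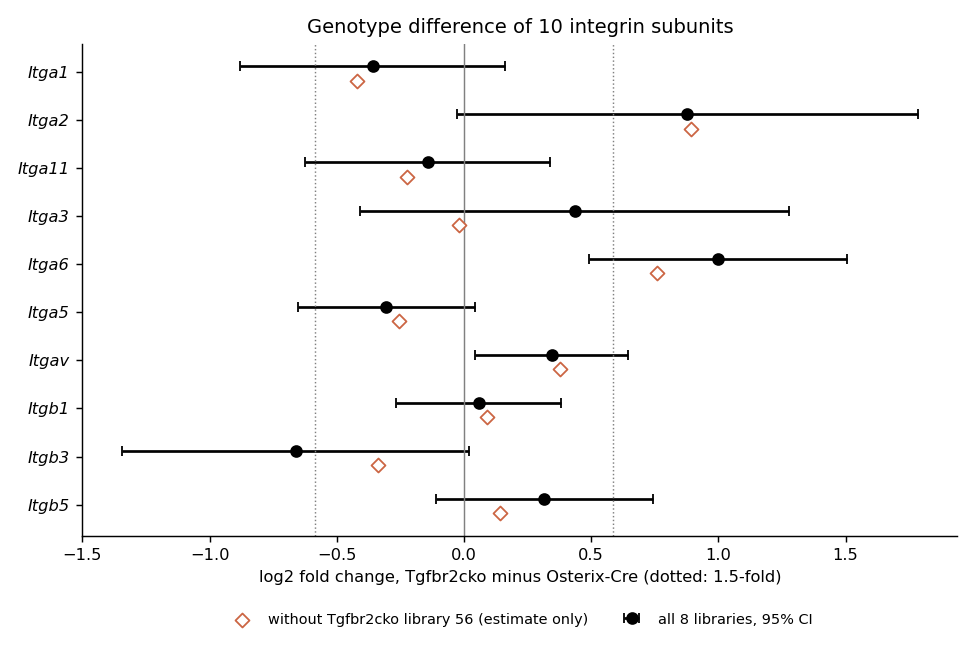
Log2 differences between the genotypes for the 10 integrin subunits. The horizontal axis is *Tgfbr2cko* minus Osterix-Cre in log2 CPM, with the estimate and its 95% interval from limma for all 8 libraries and the estimate without library 56. The intervals of *Itga6* (0.49 to 1.51) and *Itgav* (0.04 to 0.65) lie above 0, and the estimate of *Itga3* moves from 0.44 to −0.02.

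**Figure D5:**
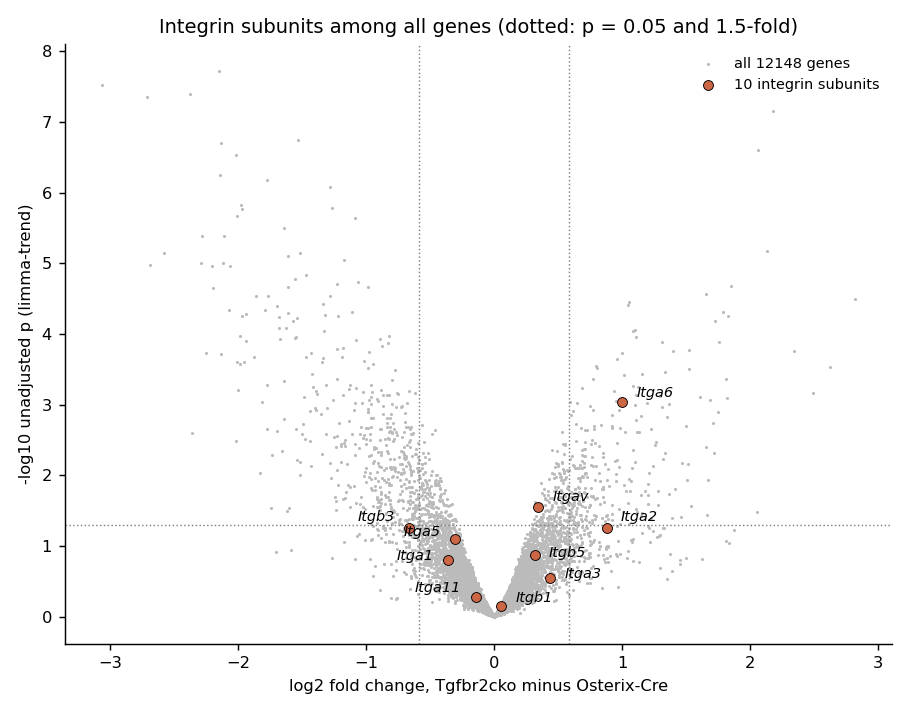
The 10 integrin subunits among all 12148 genes. The horizontal axis is the log2 difference between the genotypes and the vertical axis −log10 of the unadjusted p in limma, with grey points for all genes. *Itga6* is the only named subunit past both the p and the fold threshold.

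Library 56 was the highest of the 8 for *Itga3*, *Itga6* and *Itgb5* and the lowest for *Itgb3*. Mutant library 55 was the highest for *Itga2*, *Itgav* and *Itgb1*, so that 6 of the 10 members had their highest value in one of these 2 mutant libraries. Control library 50 was the highest for *Itga1* and *Itga5*.

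Of the 18 other integrin subunits listed, 10 were analysed, and 2 were altered, both lower in the mutants, beside 5.77% of all genes (3.65% lower). No gene of this list or of the ligand, adhesion and membrane partner lists below passed an adjusted p of 0.05 in limma with all 8 libraries. *Itga7*, a laminin receptor chain of muscle and vessel walls, was at 2.42, 2.78, 2.54 and 2.61 log2 CPM in the controls and at 1.68, 1.69, 1.81 and 1.81 in the mutants. No mutant reached the control range, and the difference was −0.84 (SE 0.24, adjusted p = 0.155 in limma). The pericyte marker sums given above were also lower in the mutants with no overlap, and the part of those cells in the *Itga7* values was not tested. *Itga8*, an RGD receptor chain of mesenchyme, differed by −0.80 (adjusted p = 0.589 in limma), with overlapping ranges. Without library 56 its difference was −0.52 (adjusted p = 0.743 in limma), it was no longer altered, and *Itga7* was the 1 altered gene of the list. Of the laminin receptor chains, *Itga6* was thus higher and *Itga7* lower in every mutant library than in any control.

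Laminins are the ligands of α3, α6 and α7. Of 11 chains, all analysed, 1 was altered, beside 5.77% of all genes. The mean was higher in the mutants for 9 chains, with a median log2 difference of 0.28 beside −0.00535 over all genes, and 0.17 beside 0.07 without library 56. *Lamc3*, a γ chain, was at 4.22, 4.67, 4.17 and 4.33 log2 CPM in the controls and at 5.09, 4.92, 4.98 and 5.41 in the mutants, all above the controls. Its difference was 0.75 (SE 0.18, adjusted p = 0.0764 in limma), and 0.65 without library 56. *Lama3* and *Lamb3*, laminin chains of epithelial basement membranes, had differences of 1.81 and 1.04 and were not altered. Their values in library 56 were 8.43 and 9.41 log2 CPM, and without it the differences were 0.68 and 0.21.

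Of 10 collagen chains 2 were altered, both lower, beside 5.77% of all genes (3.65% lower). *Col1a2*, a chain of type I collagen, the main fibre of dentin and pulp, differed by −1.22 (SE 0.43, adjusted p = 0.316 in limma) and *Col5a1*, which starts fibril assembly, by −0.66 (SE 0.15, adjusted p = 0.0602 in limma). For both, all mutants lay below all controls, whereas the values of the collagen receptor chains *Itga1*, *Itga2* and *Itga11* overlapped between the genotypes. The collagen list had a median difference of −0.20 beside −0.00535 over all genes, and of −0.11 beside 0.07 without library 56.

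Of 17 ligands of RGD receptors 15 were analysed, without *Vtn* and *Spp1*, and 2 were altered, beside 5.77% of all genes. *Ibsp*, a mineral-binding sialoprotein with an RGD motif, was altered at 1.24 (SE 0.39, adjusted p = 0.23 in limma) and 0.77 without library 56. *Edil3*, a secreted ligand of αv integrins, was altered at −0.68 (SE 0.24, adjusted p = 0.33 in limma). *Fn1*, the ligand of α5β1, differed by −0.24 (SE 0.19, adjusted p = 0.898 in limma), or −0.11 without library 56. The median over the list was −0.19 beside −0.00535 over all genes, or −0.06 beside 0.07 without library 56. Without library 56 the altered genes were *Ccn2*, *Ibsp* and *Mfge8*, beside 5.30% of all genes.

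Of 27 proteins that bind integrin tails or link them to actin 26 were analysed, and 2 were altered, both lower, beside 5.77% of all genes (3.65% lower). *Fermt1*, the kindlin of epithelial cells, was at 4.01, 3.69, 4.16 and 4.08 log2 CPM in the controls and at 1.68, 1.79, 2.82 and 4.69 in the mutants. Apart from library 56 all mutants were below the controls, and the difference moved from −1.24 (adjusted p = 0.476 in limma) to −1.89 without that library (adjusted p = 0.00468 in limma). *Tns1*, a tensin of focal adhesions, differed by −0.60 (adjusted p = 0.287 in limma), and by −0.39 without library 56, which is under the fold threshold. *Tln1*, *Fermt2* and *Vcl*, core linkers of mesenchymal adhesions, had differences of −0.29, −0.12 and 0.48 and were not altered, and without library 56 that of *Fermt2* was 0.03. The mean was lower in the mutants for 19 of the 26, with a median of −0.06 beside −0.00535 over all genes. Without library 56 it was lower for 11 of the 26, with a median of 0.02 beside 0.07 over all genes. Of 9 membrane partners of integrins 1 was altered, beside 5.77% of all genes. It was *Cav1*, the coat protein of caveolae, at −0.80 (SE 0.20, adjusted p = 0.0885 in limma, and 0.0414 without library 56), with all mutants below all controls. *Cav1* is abundant in endothelium, whose marker sums are given above, and the part of those cells in its value was not tested.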

How the data were processed

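RNA-Seq was analysed in 8 libraries of P7 dental pulp, 4 Osterix-Cre and 4 *Tgfbr2cko*, grouped by the genotype in the sample labels. Per the labels and the study's methods, RNA was amplified from a low input with SMART-seq chemistry. Per the submitters' processing notes and the methods, reads were trimmed with fastp 0.21.0, aligned with HISAT2 2.1.0 to GRCm38.p5 and counted by featureCounts in Subread 2.0.1 on GENCODE genes, without unique molecular identifiers, and genes were kept by the CLEAR filter. Strandedness is not given in the sources used here. The authors deposited log2 values from voom, that is log2 CPM with 0.5 added to each read count. These give back whole reads (within 0.01) for all 97184 values. Counting limits cover counting error only.

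Genotypes were compared on the deposited log2 values with limma 3.58.1 in R 4.3.3, with an intensity trend, over all 12148 genes, two-sided, and with Benjamini-Hochberg adjustment over those genes. The thresholds of the study were kept, so that an altered gene has an unadjusted p under 0.05 and differs by 1.5-fold or more. Single genes were also compared by exact permutation of the genotype labels. RPKM was computed from the recovered reads and the summed exon length of GENCODE M21, also on GRCm38, which matched 12144 identifiers. Upstream windows came from RefSeq (GRCm38.p6). Figures were drawn with matplotlib 3.10.9 in Python 3.11.15.

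The members and lists were chosen with earlier results of these data known. The text names all 10 members, *Tgfbr2*, *Amelx* and *Ambn*, the altered genes of each list of other integrins, ligands and adhesion proteins (at most 4 per list and direction, by p), marker genes, and single genes that a sentence on a list needs. Alternatives covered weights, normalization, pseudocount, filter, covariates, fold threshold, libraries of one title number averaged, and each library left out.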

Additional observations from a re-analysis of the deposited data

Results flagged for a closer look

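With 4 libraries a group, a library was marked where its gap to the nearest other library, divided by the range of the group, exceeded Dixon's 95% critical value. Of 50 groups of values tested in this way 3 were marked, and chance marks about 1 in 20 groups. The *Itga5* minus *Itgav* log2 difference of mutant library 53 was −0.73 against −0.97 to −0.95 in the other 3 mutants (ratio 0.882), and it was still below all controls. The summed enamel matrix transcripts (*Amelx*, *Ambn* and *Enam*) of control library 49 were 22080 CPM against 3343 to 5708 CPM in the other controls (ratio 0.874). The same sum in mutant library 56 was 191955 CPM against 3555 to 28661 CPM in the other mutants (ratio 0.867).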

How the results depend on the processing

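The count of altered members, 1 as reported, was 2 with library weights, with quantile normalization, with median centring, with totals that leave out enamel matrix reads, with like-numbered libraries averaged (which leaves 3 controls and 2 mutants) and with no fold threshold, 3 with voom weights and 0 at 2-fold or more, and it ran from 1 to 3 when 1 library was left out. The count at an adjusted p under 0.05 in limma, 0 as reported with 2 members at an unadjusted p under 0.05, was 1 with library weights and with like-numbered libraries averaged, and ran from 0 to 1 when 1 library was left out (1 without mutant library 53). In these 3 fits the member was *Itga6*, with adjusted p of 0.0142, 0.0263 and 0.021. *Itga6* was altered in all 19 fits that kept the fold threshold, and the further altered members were *Itga2* in 6, *Itgb3* in 5 and *Itga3* in 1 (without mutant library 53). *Itga3* changed sign with the enamel matrix covariate (−0.0507), with the keratin covariate (−0.34), which was chosen after seeing the data, and without mutant library 56, with a range of −0.0199 to 0.755 when 1 library was left out. *Itgb1* changed sign without control library 49, with a range of −0.00627 to 0.0938. The cause of these shifts was not tested. No paired analysis was possible because the genotypes share fewer than 2 title numbers. Library 56 had the lowest weight, 0.349. The lowest member value rests on 50 reads.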

Other observations

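Among the integrin subunits that are not members, *Itga10*, a collagen receptor chain of cartilage, was at 4.94, 5.11, 4.67 and 4.67 log2 CPM in the controls and at 5.60, 5.43, 5.14 and 4.50 in the mutants. The 3 mutant libraries other than 56 were above all controls, and the difference was 0.32 (unadjusted p = 0.183 and adjusted p = 0.862 in limma) with all libraries and 0.54 (unadjusted p = 0.0093 and adjusted p = 0.239 in limma) without library 56. *Itga2b*, the platelet α chain that pairs with β3, was at 2.63, 2.65, 2.74 and 2.02 log2 CPM in the controls and at 2.08, 2.20, 1.95 and 1.68 in the mutants, a difference of −0.53 (adjusted p = 0.656 in limma). *Itgb2*, the β chain of leukocytes, differed by −0.42 (adjusted p = 0.841 in limma), or −0.21 without library 56. The 6 macrophage markers summed to between 462 and 623 CPM over the controls and between 264 and 585 CPM over the mutants. *Fblim1*, an actin-linking adaptor at adhesions, was 1.47-fold higher in the mutants, under the fold threshold, with all mutants above all controls (0.56, SE 0.19, adjusted p = 0.275 in limma).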
